A study of Mus musculus with 25 samples.

Results

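The 9 genes described here encode transcription factors that set cell fate outside the nervous system: the Gata zinc-finger factors Gata1 to Gata6, and the regulators Sox17, Foxa1 and Cdx2. They were chosen by symbol from the deposited table, in which each has 1 row, and make up 9 of the 24221 genes kept. Their chromatin was measured by ChIP-seq, which sequences the DNA that an antibody pulls down, for 4 histone marks. H3K4me3 marks active and poised promoters, H3K27ac active promoters and enhancers, H3K4me1 enhancers and promoter flanks, and H3K27me3 chromatin repressed by Polycomb complexes.

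Mouse fibroblasts that the labels call tdMEFs were profiled in serum-containing MEF medium at 20% oxygen (D0), then in M9 medium with oxygen at 5%, after 4 days (D4) and after 8 days (D8). This medium has no serum and carries bFGF, retinoic acid, SMER28, the GSK3 inhibitor CHIR99021, Parnate (an LSD1 inhibitor), RG108 (an inhibitor of DNA methyltransferases), the Smoothened agonist Hh-Ag1.5, and A83-01 and LDN193189, which block TGF-beta and BMP receptors. The series title names a chemical reprogramming of fibroblasts towards neural stem cells, so the genes here belong to fates other than its target. Each mark and stage has 1 library, D4 and D8 differ from D0 in medium, oxygen and days at once and from each other in days, and no value can be set against a spread between replicates; every difference below describes single libraries. Samples of ciNSLC, pri-NPC and input, which the labels also list, are not analysed here.

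Gata factors bind the core sequence GATA through a pair of zinc fingers. Gata1 drives red cell and megakaryocyte formation and Gata2 maintains blood stem and progenitor cells, while Gata3 acts in T cells and trophoblast. Gata4, Gata5 and Gata6 act in heart and endoderm. Sox17 is an HMG-box factor of definitive endoderm and endothelium, Foxa1 a forkhead pioneer factor of endoderm-derived organs, and Cdx2 a homeobox factor of trophectoderm and hindgut. In cells of other lineages such genes are known as targets of Polycomb complexes, which are recruited mainly to promoters rich in CpG dinucleotides.

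The promoters of 4 of these genes are printed because CpG content differs between them and because their marks, given further on, followed different courses: Gata1 gained H3K27me3, Gata3 carried less of it at D4 and D8, and Foxa1 and Cdx2 kept it at every stage. Each runs 5′ to 3′ on the gene's strand, from 250 bases before to 50 after the start annotated by RefSeq (GRCm38.p6), and capitals mark CpG dinucleotides. The Gata1 window is chrX:7967861-7968160, that of Gata3 chr2:9878551-9878850, that of Foxa1 chr12:57546062-57546361 and that of Cdx2 chr5:147307200-147307499, all on the minus strand. The gene bounds reach further upstream for Gata1 (to chrX:7976663), Gata3 (to chr2:9887953) and Foxa1 (to chr12:57548029). Their windows thus lie inside the gene bounds and do not cover the upstream end.
Gata1: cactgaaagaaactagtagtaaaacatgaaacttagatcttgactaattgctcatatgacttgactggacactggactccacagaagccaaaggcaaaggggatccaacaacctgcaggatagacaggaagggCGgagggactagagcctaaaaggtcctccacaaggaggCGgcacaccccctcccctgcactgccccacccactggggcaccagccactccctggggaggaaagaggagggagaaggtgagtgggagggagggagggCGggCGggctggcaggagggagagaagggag
Gata3: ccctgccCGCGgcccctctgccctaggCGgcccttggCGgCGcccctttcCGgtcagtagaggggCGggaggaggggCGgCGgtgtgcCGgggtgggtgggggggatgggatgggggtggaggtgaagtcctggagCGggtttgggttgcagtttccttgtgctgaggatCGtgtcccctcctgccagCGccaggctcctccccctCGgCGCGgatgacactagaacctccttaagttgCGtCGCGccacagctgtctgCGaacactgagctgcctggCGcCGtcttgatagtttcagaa
Foxa1: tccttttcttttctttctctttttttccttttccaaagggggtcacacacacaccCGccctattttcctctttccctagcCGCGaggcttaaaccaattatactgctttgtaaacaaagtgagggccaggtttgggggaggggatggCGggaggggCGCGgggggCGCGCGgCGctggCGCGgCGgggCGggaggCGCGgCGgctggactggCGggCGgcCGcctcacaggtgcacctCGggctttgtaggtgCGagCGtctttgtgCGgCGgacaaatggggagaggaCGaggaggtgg
Cdx2: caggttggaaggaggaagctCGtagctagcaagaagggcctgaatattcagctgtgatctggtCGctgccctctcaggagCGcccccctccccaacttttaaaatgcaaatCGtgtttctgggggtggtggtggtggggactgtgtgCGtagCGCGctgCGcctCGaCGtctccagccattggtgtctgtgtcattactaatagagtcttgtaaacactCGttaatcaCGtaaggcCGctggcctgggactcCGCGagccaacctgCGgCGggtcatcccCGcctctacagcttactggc

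The Gata1 window holds 4 CpG dinucleotides, against 22 in that of Gata3, 26 in that of Foxa1 and 18 in that of Cdx2. The median over all 32841 RefSeq promoter windows of this length is 7. Gata5 has 26 CpG, and the 2 annotated starts of Gata2 have 32 and 29. A window was available for 6 of the 9 genes, not for Gata4, Gata6 and Sox17. Forms of the site that Gata factors bind were searched on both strands: the hexamer AGATAA, the hexamer AGATAG, the hexamer TGATAA and the hexamer TGATAG. Only the Gata3 window held one, and 29.8% of all windows held at least 1.

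Depth ran from 1.58 M reads in the H3K27ac library of D0 to 34.9 M in the H3K4me3 library of D8. The values are RPM (reads per 1 M reads of the library), and at all 9 genes every value came to a whole number of reads within a tolerance of 0.02, so that each level can be given with its reads and an exact 95% Poisson interval. These intervals, and the exact binomial intervals of ratios, cover counting error only. The D0 libraries stood apart in the genes of the sex chromosomes: the labels give the same cells at all 3 stages, yet Xist, whose RNA silences an X chromosome, had 1.03 RPM of H3K4me3 at D0, 41.1 RPM at D4 and 47.9 RPM at D8. Ddx3y, on the Y chromosome, had 15.8, 6.49 and 9.67 RPM at the same stages. Every comparison with D0 rests on these libraries, and D8 against D4 compares none of them directly. The normalization, pseudocount and filter described below still take in D0, so only the RPM ratios of D8 over D4 are free of it. The 6 fibroblast markers (such as Col1a1 and Thy1) stood high for H3K4me3, with a median percentile among all genes of 99.9 at D0, 99.0 at D4 and 97.0 at D8. Of other cell types, the H3K4me3 of the 4 blood markers summed to 6.10, 7.93 and 4.21 RPM at D0, D4 and D8, the 4 endothelial markers to 9.11, 12.6 and 21.1 RPM and the 4 epithelial markers to 7.05, 9.38 and 21.7 RPM, with none of them at 0. The endothelial median was 1.82, 1.80 and 1.33 RPM, and 1 endothelial marker held 17.3 RPM of the D8 sum. The epithelial median was 1.66, 2.70 and 5.31 RPM. H3K4me3 in RPM was higher across the genome at the later stages, as given next, so these sums do not show more of a cell type. The part of these cell types in the results was not tested.

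H3K4me3 in RPM was higher across the genome at the later stages: against D0, the median log2 change of all compared genes was 0.60 for D4 and 1.52 for D8. Changes are therefore given after quantile normalization, which gives the 3 libraries of a mark the same distribution, as log2 with a pseudocount added. In the order H3K4me3, H3K27ac, H3K4me1 and H3K27me3 it was 1.44, 1.53, 1.63 and 1.30 RPM, and it makes changes at low levels look smaller than they are. Genes were compared when the larger normalized value was at least the mark's median, which in that order was 6.02, 2.29, 2.52 and 1.79 RPM, and a difference was called from 2-fold. A gene under this median at D0 was thus compared only if it reached it later, which favours higher calls among such genes. For H3K27me3 all 9 genes passed this filter against D0. For the other marks 3 or 4 of the 9 did so, and the genes under the filter are given by their levels. For D8 against D4, 4 of the 9 passed in H3K4me3, 3 in H3K27ac, 5 in H3K4me1 and 9 in H3K27me3.

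The 9 genes fell into 3 kinds of chromatin. Gata4, Gata5, Sox17, Foxa1 and Cdx2 carried much H3K27me3 and little H3K4me3. Gata2, Gata3 and Gata6 carried H3K4me3 together with H3K27me3 at D0, and Gata1 carried little of either mark. The gene bounds in GRCm38.p6 are chr6:88193891-88207032 for Gata2, chr2:9857078-9887953 for Gata3, chr14:63198914-63271712 for Gata4, chr2:180325088-180335503 for Gata5, chr1:4490928-4497426 for Sox17, chr12:57540628-57548029 for Foxa1, chr5:147300900-147307249 for Cdx2 and chrX:7959260-7976663 for Gata1, and Gata6 lies on chromosome 18. At D0, 6 of the 9 lay at or above the 95th percentile of H3K27me3, and 5 did so at D4 and at D8.

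**Figure D1:**
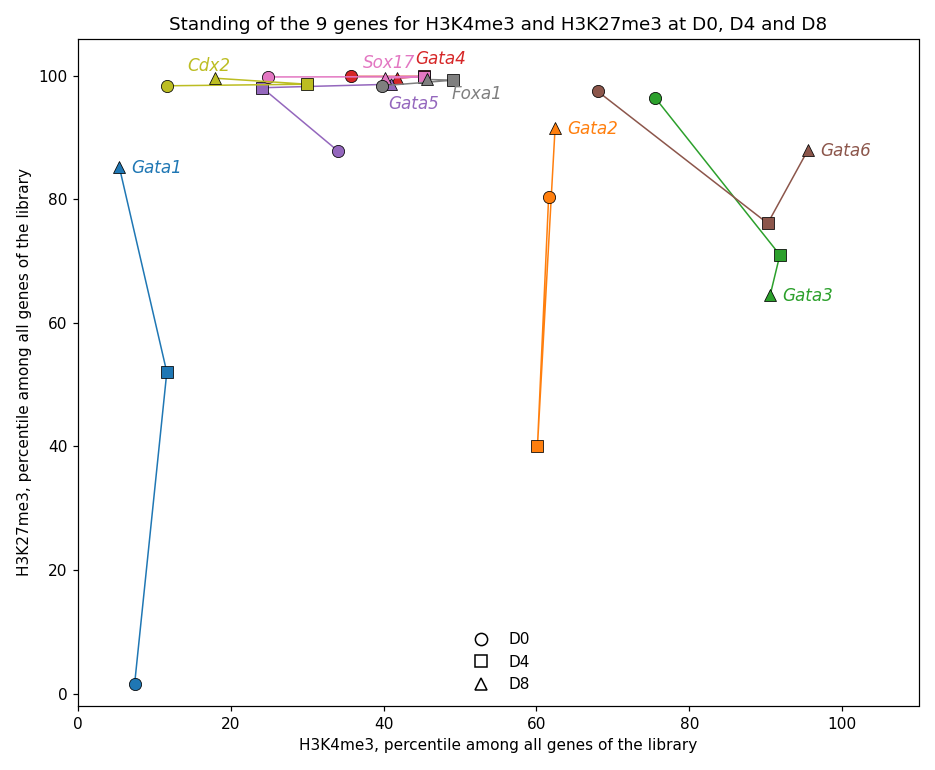
Percentile of each of the 9 genes among all 24221 genes of the same library, for H3K4me3 (x axis) and H3K27me3 (y axis); circles, squares and triangles stand for D0, D4 and D8, and lines join the stages of a gene. Gata4, Sox17, Foxa1 and Cdx2 stay at the top edge, Gata3 and Gata6 move to the right and down from D0 to D4, and Gata1 moves up the left edge.

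In RPM, Gata3 and Gata6 had more H3K4me3 and H3K27ac and less H3K27me3 at D8 than at D0. In whole cultures such as these, a mark on more of the cells and a denser mark on each cell cannot be told apart. Gata6 had 10.1 RPM of H3K4me3 at D0 (95% interval 8.46 to 12.1), 31.0 RPM at D4 (24.8 to 38.3) and 72.2 RPM at D8 (69.4 to 75.1), from 128, 86 and 2518 reads. Gata3 had 12.8 RPM at D0 (10.9 to 15.0), 32.8 RPM at D4 (26.4 to 40.3) and 59.9 RPM at D8 (57.4 to 62.5), from 162, 91 and 2088 reads. The 3 intervals of each gene do not overlap, and both genes were lowest at D0 and highest at D8. Among all genes of the same library, Gata6 stood at H3K4me3 percentiles of 68.0, 90.3 and 95.5, and Gata3 at 75.5, 91.9 and 90.6, from D0 through D4 to D8. Gata6 thus stood higher among all genes at each later stage, whereas Gata3 stood higher at D4 and D8 than at D0 and about level between those later stages.

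After quantile normalization, Gata6 was the 1 gene of the 9 that was at least 2-fold higher in H3K4me3 at D8 than at D0 (log2 1.15), where 4.24% of all compared genes were. Its change at D4 against D0 was 0.86. Gata3 was at 0.59 at D8 and 0.65 at D4 against D0, both under 2-fold. As deposited, Gata2, Gata3, Gata6 and Foxa1 were at least 2-fold higher at D8 than at D0, but 91.1% of all compared genes were as well; Gata3 and Gata6 were so at D4 against D0 (13.4%) and Gata2 and Gata6 at D8 against D4 (41.2%). At D4 against D0 the 1 gene called was Foxa1 (4.00% of compared genes were at least 2-fold higher). Foxa1 lay under the filter at D0 and was compared only through D4.

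H3K27me3 of Gata6 was 5.87 RPM at D0 (3.96 to 8.38), 2.39 RPM at D4 (1.73 to 3.20) and 3.31 RPM at D8 (2.35 to 4.55), from 30, 44 and 38 reads. That of Gata3 was 5.28 RPM at D0 (3.48 to 7.69), 2.22 RPM at D4 (1.60 to 3.02) and 2.18 RPM at D8 (1.41 to 3.22), from 27, 41 and 25 reads. In both genes D0 was the highest stage; its interval does not overlap those of D4 and D8 for Gata3, while for Gata6 it is clear of D4 and overlaps D8. The RPM ratio of D8 over D0 was 0.413 for Gata3 (95% interval 0.230 to 0.739) and 0.565 for Gata6 (0.341 to 0.944), and that of D4 over D0 was 0.421 (0.253 to 0.711) and 0.407 (0.250 to 0.670) for the same genes. The normalized changes at D8 against D0 were -0.90 for Gata3, lower than in all but 2.92% of compared genes, and -0.61 for Gata6. None of these passed 2-fold on the scale with the pseudocount.

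H3K27ac of both genes was highest at D8, in a mark whose D0 library is the shallowest. Gata6 had 2.53 RPM at D0 (0.689 to 6.47, 4 reads), 3.13 RPM at D4 (2.34 to 4.09, 53 reads) and 8.77 RPM at D8 (6.83 to 11.1, 69 reads). Gata3 had 1.90 RPM at D0 (0.391 to 5.54, 3 reads), 3.01 RPM at D4 (2.24 to 3.96, 51 reads) and 6.10 RPM at D8 (4.50 to 8.09, 48 reads). D8 was the highest stage for both, and the ratio of D8 over D4, which leaves out the shallow library, was 2.80 for Gata6 (1.93 to 4.09) and 2.03 for Gata3 (1.34 to 3.07). The whole H3K27ac library at D8 was also higher, by a median of 0.40 on the log2 scale against D4, and after normalization the D8 against D4 changes were 0.54 for Gata6 and 0.30 for Gata3. Over D0 the ratio of D8 was 3.47 for Gata6 (1.30 to 13.1) and 3.22 for Gata3 (1.04 to 16.2), with normalized changes of 0.92 and 0.81 that stayed under 2-fold. As deposited, Gata3, Gata6 and Sox17 were at least 2-fold higher at D8 than at D0, where 20.0% of compared genes were, and Gata6 at D8 against D4, where 7.20% were.

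**Figure D2:**
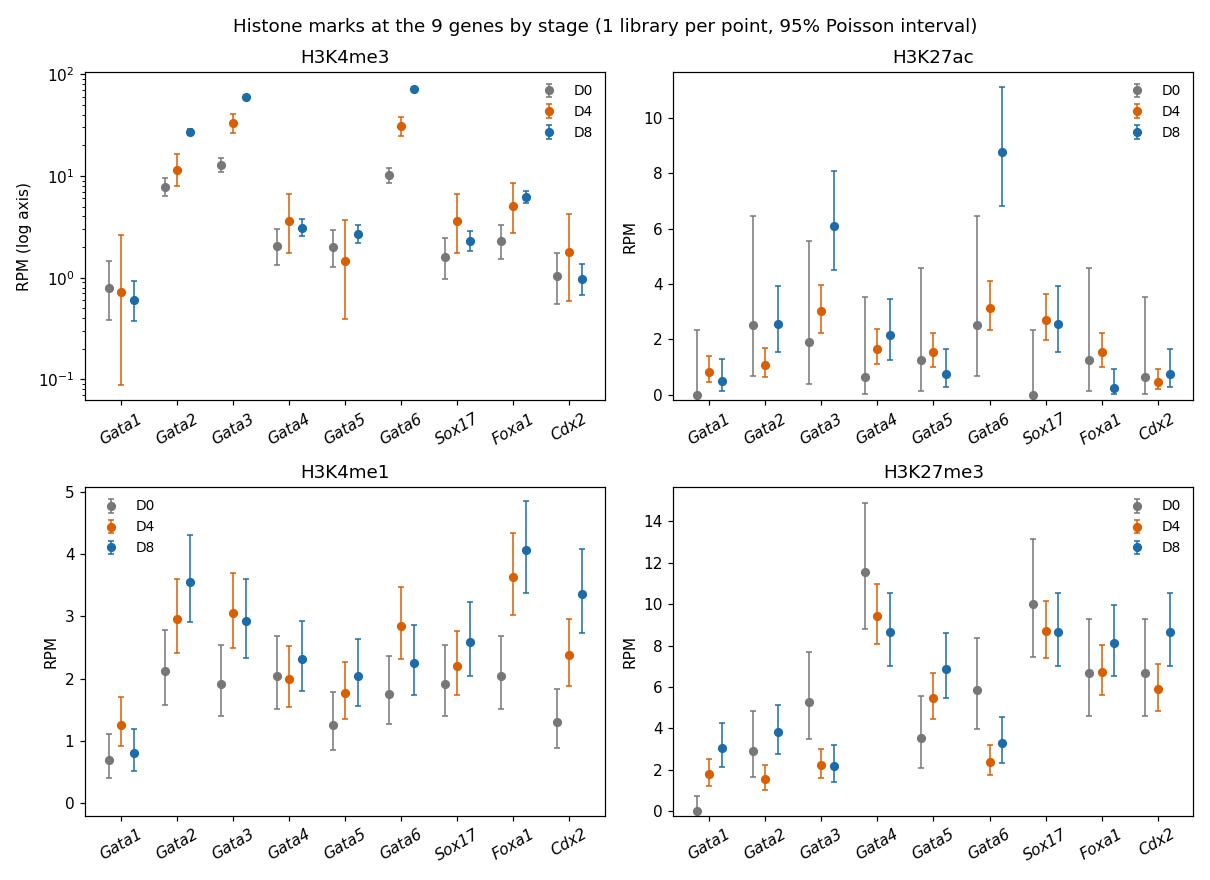
Level of the 4 marks at the 9 genes in RPM (log axis for H3K4me3) at D0, D4 and D8, 1 library per point, with the exact 95% Poisson interval of its reads. Gata2, Gata3 and Gata6 stand above the other genes in H3K4me3 at every stage, Gata6 and Gata3 reach 8.77 and 6.10 RPM of H3K27ac at D8, and Gata4 and Sox17 are highest in H3K27me3 at D0 and D4.

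Both genes have annotated neighbours whose reads may be shared, since no source used here gives the region counted around a gene. Gata6os, a noncoding RNA that overlaps Gata6 by 58 bases, had 9.03, 27.8 and 63.1 RPM of H3K4me3 and 7.43, 2.93 and 4.01 RPM of H3K27me3 at D0, D4 and D8, close to Gata6 itself. Within the Gata3 gene bounds lies the noncoding RNA 4930412O13Rik, whose annotated start is 2646 bases from that of Gata3. Its H3K27me3 was 7.04 RPM at D0, 2.77 RPM at D4 and 6.37 RPM at D8, so the low value of Gata3 at D8 was not seen there. A second overlapping noncoding RNA, 9230102O04Rik, had 8.61, 7.70 and 7.50 RPM of H3K27me3.

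Gata2 carried intermediate H3K4me3 that kept its rank and H3K27me3 that was lowest at D4. Its H3K4me3 was 7.76 RPM at D0 (6.30 to 9.46), 11.5 RPM at D4 (7.89 to 16.3) and 26.9 RPM at D8 (25.2 to 28.7), at percentiles 61.6, 60.1 and 62.4, so the rise in RPM matched that of the library as a whole. After normalization its change at D8 against D0 was 0.04. H3K27me3 was 2.93 RPM at D0 (1.64 to 4.84, 15 reads), 1.57 RPM at D4 (1.05 to 2.26, 29 reads) and 3.84 RPM at D8 (2.79 to 5.15, 44 reads). The D8 and D4 intervals do not overlap, and the ratio of D8 over D4 was 2.44 (1.49 to 4.04), a normalized change of 0.82 that was above 99.2% of compared genes. H3K27ac of Gata2 was also lowest at D4 and level between the other stages, with 2.53 RPM at D0 (4 reads), 1.06 RPM at D4 (18 reads) and 2.54 RPM at D8 (20 reads). The D4 over D0 ratio was 0.536 in H3K27me3 (0.278 to 1.08) and 0.420 in H3K27ac (0.139 to 1.71), and both intervals include 1. No gene of the 9 was at least 2-fold different between D8 and D4 in any mark. Of all compared genes, 1.16% were in H3K4me3, 1.12% in H3K27ac, 0% in H3K4me1 and 0.227% in H3K27me3.

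Gata1, on the X chromosome, gained H3K27me3 without H3K4me3. No read of H3K27me3 was counted at D0, which allows up to 0.587 RPM (3 reads), against 1.79 RPM at D4 (1.23 to 2.51, 33 reads) and 3.05 RPM at D8 (2.13 to 4.25, 35 reads). Set against that limit of 3 reads, H3K27me3 at Gata1 was at least 3.05-fold higher at D4 and at least 5.20-fold higher at D8 than at D0. The exact 95% intervals of these ratios, which also take in the counting error of the later stages, start lower, at 2.34 for D4 and 4.01 for D8. On the normalized scale it was the 1 gene of the 9 called in this mark, in both comparisons: 1.35% of all compared genes were at least 2-fold higher at D4 than at D0 and 1.80% at D8 than at D0. Its D8 over D4 ratio, which uses no D0 library, was 1.71 (1.03 to 2.83). Both calls against D0 were lost with a pseudocount multiplied by 4. At D0 Gata1 lay under the filter of this mark, so it was compared only through the later stages. H3K4me3 of Gata1 stayed at 0.792, 0.721 and 0.602 RPM at D0, D4 and D8 (10, 2 and 21 reads), and H3K27ac at 0, 0.826 and 0.509 RPM (0, 14 and 4 reads).

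X-linked genes as a whole also had more H3K27me3 at D4 and D8 than at D0, and Gata1 differed by more than most of them. Over the 967 X-linked genes the median level was 0.783 RPM at D0, 1.79 RPM at D4 and 1.92 RPM at D8. The median over 22183 autosomal genes was 1.76, 1.74 and 1.83 RPM. At D0, 15.1% of X-linked genes had no read of this mark, against 2.18% of autosomal genes. Of the X-linked genes compared, 10.1% were at least 2-fold higher at D8 than at D0, against 1.52% of autosomal ones. The shift was not confined to this mark. The X-linked median change at D8 against D0 was 0.51 in H3K27me3, 0.39 in H3K4me1, 0.25 in H3K27ac and -0.21 in H3K4me3. The normalized change of Gata1 stood at percentile 95.2 of the compared X-linked genes for D4 against D0, 99.7 for D8 against D0 and 93.4 for D8 against D4. Between D8 and D4 the X-linked median change was 0.02, against 0.49 for Gata1. By level, within the X-linked genes, Gata1 stood at percentile 7.55 at D0, 50.1 at D4 and 89.2 at D8. Its level at D4 was thus the chromosome's median, and its level at D8 was above the X-linked upper quartile of 2.53 RPM. The parts of the X chromosome as a whole and of Gata1 itself cannot be told apart against D0, where Xist also differed.

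**Figure D3:**
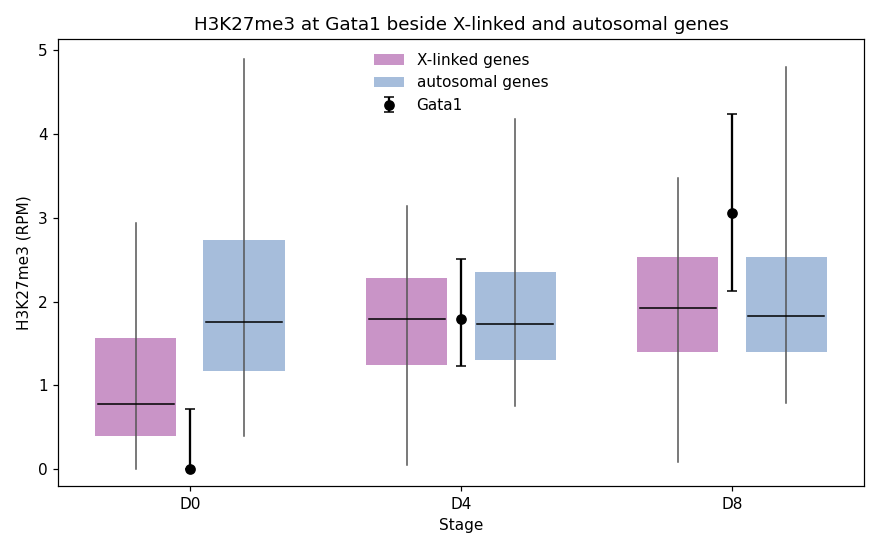
H3K27me3 at D0, D4 and D8 in RPM: boxes run from the 25th to the 75th percentile of X-linked and of autosomal genes with the median as a line, whiskers from the 5th to the 95th percentile, and the point is Gata1 with its 95% Poisson interval. The X-linked box is lower than the autosomal one at D0 and level with it at D4 and D8, and Gata1 is at 0, 1.79 and 3.05 RPM.

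Gata4 and Sox17 were among the genes with the most H3K27me3 in the genome. Gata4 had 11.5 RPM at D0 (8.79 to 14.9), 9.44 RPM at D4 (8.09 to 10.9) and 8.63 RPM at D8 (7.02 to 10.5), which put it at rank 20, 17 and 87 of all genes. Sox17 had 9.98 RPM at D0 (7.43 to 13.1), 8.68 RPM at D4 (7.38 to 10.1) and 8.63 RPM at D8 (7.02 to 10.5), at rank 39, 32 and 87. The intervals of the 3 stages overlap for each gene, and the D8 over D0 ratio was 0.748 for Gata4 (0.537 to 1.05) and 0.865 for Sox17 (0.611 to 1.24). Neither interval excludes 1.

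Their H3K4me3 was low. Gata4 had 2.06 RPM at D0, 3.61 RPM at D4 and 3.10 RPM at D8 (26, 10 and 108 reads), and Sox17 had 1.58, 3.61 and 2.30 RPM (20, 10 and 80 reads). Both stayed under the median of the mark. H3K27ac of Gata4 was 0.632 RPM at D0, 1.65 RPM at D4 and 2.16 RPM at D8 (1, 28 and 17 reads), under the filter at each stage. Sox17 had no read of H3K27ac at D0, which at 0.632 RPM per read allows up to 1.90 RPM, against 2.72 RPM at D4 (46 reads) and 2.54 RPM at D8 (20 reads). Against that limit of 3 reads, D4 was at least 1.43-fold higher. The exact 95% interval of the ratio over D0 starts at 1.12 for D4 and at 0.994 for D8, so that for D8 it does not exclude 1. Sox17 was the 1 gene of the 9 called for H3K27ac at D4 against D0 (1.33), where 7.77% of compared genes were at least 2-fold higher. With a pseudocount multiplied by 4 this call was lost. Sox17 lay under the filter at D0 and was compared only through D4. At D8 against D0 none of the 9 was called for H3K27ac, where 14.7% of compared genes differed at least 2-fold in either direction.

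Gata5 had more H3K27me3 at D8 than at D0, by more than counting error. The levels were 3.52 RPM at D0 (2.09 to 5.57, 18 reads), 5.48 RPM at D4 (4.46 to 6.66, 101 reads) and 6.89 RPM at D8 (5.45 to 8.59, 79 reads), at percentiles 87.8, 98.1 and 98.7. D8 was the highest stage and its ratio over D0 was 1.96 (1.16 to 3.47), with a normalized change of 0.78 that stayed under 2-fold. The noncoding RNA Gata5os, which overlaps Gata5 by 2647 bases, had 2.74, 4.45 and 6.28 RPM, and its reads may be the same ones. H3K4me3 of Gata5 was 1.98 RPM at D0, 1.44 RPM at D4 and 2.70 RPM at D8, and H3K27ac 1.26, 1.53 and 0.763 RPM, all under the filter.

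Foxa1 carried H3K27me3 at all stages together with the highest H3K4me1 of the 9 at D4 and D8. Its H3K27me3 was 6.65 RPM at D0 (4.61 to 9.30), 6.72 RPM at D4 (5.59 to 8.02) and 8.11 RPM at D8 (6.55 to 9.94), with overlapping intervals and percentiles of 98.4, 99.3 and 99.4. H3K4me1 was 2.04 RPM at D0 (1.51 to 2.69, 50 reads), 3.64 RPM at D4 (3.03 to 4.34, 124 reads) and 4.06 RPM at D8 (3.37 to 4.86, 121 reads). D0 lay below the other stages, with a D8 over D0 ratio of 2.00 (1.42 to 2.83), which after normalization was 0.34 on the log2 scale; H3K4me1 of all genes was also higher at D8 (median log2 0.48 as deposited).

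H3K4me3 of Foxa1 was 2.30 RPM at D0 (1.54 to 3.30, 29 reads), 5.05 RPM at D4 (2.76 to 8.47, 14 reads) and 6.25 RPM at D8 (5.45 to 7.14, 218 reads). The normalized change at D4 against D0 was 1.00, just at the 2-fold threshold and resting on 14 reads at D4; with the median of all genes subtracted in place of quantile normalization it was under the threshold, as it was with a pseudocount multiplied by 4. At D8 Foxa1 fell under the filter on normalized levels, and the sign of its change against D0 depended on the scaling (0.58 after quantile normalization, -0.47 with the median subtracted). H3K27ac of Foxa1 was 1.26 RPM at D0, 1.53 RPM at D4 and 0.254 RPM at D8, from 2, 26 and 2 reads. The ratio of D8 over D4 was 0.166 (0.0191 to 0.662), among levels below the median of the mark at each stage. The neighbouring gene Ttc6, which overlaps Foxa1 by 1326 bases, had 4.70, 3.52 and 3.31 RPM of H3K27me3. Its values at D4 and D8 lay below the intervals of Foxa1, while that at D0 lay within the Foxa1 interval (4.61 to 9.30).

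Cdx2 carried little H3K4me3 and high H3K27me3 at every stage. It had 6.65 RPM of H3K27me3 at D0 (4.61 to 9.30), 5.91 RPM at D4 (4.85 to 7.13) and 8.63 RPM at D8 (7.02 to 10.5), with a ratio of D8 over D4 of 1.46 (1.10 to 1.93). Its H3K4me3 was 1.03, 1.80 and 0.975 RPM (13, 5 and 34 reads) and its H3K27ac 0.632, 0.472 and 0.763 RPM (1, 8 and 6 reads) at D0, D4 and D8. Its D8 over D0 ratio was largest in H3K4me1, with 1.30 RPM at D0 (0.892 to 1.84, 32 reads), 2.38 RPM at D4 (1.89 to 2.96, 81 reads) and 3.36 RPM at D8 (2.73 to 4.09, 100 reads). The D8 over D0 ratio was 2.58 (1.72 to 3.97), and the normalized change of 0.66 was above 97.9% of compared genes. No gene of the 9 reached 2-fold in H3K4me1, where 0.175% of compared genes did so at D4 against D0 and 0.260% at D8 against D0.

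Across the remaining genes H3K4me1 lay in a narrow range. Apart from Foxa1 and Cdx2, values ran from 0.693 RPM (Gata1 at D0) to 3.56 RPM (Gata2 at D8), where the medians of all genes were 2.20 RPM at D0, 2.61 RPM at D4 and 3.06 RPM at D8. The interval of the D8 over D0 ratio excluded 1 for 5 of the 9 genes, each with a ratio above 1 (Gata2, Gata3, Gata5, Foxa1 and Cdx2), on a scale on which the median of all genes was higher as well. The same held for 48.8% of all genes with a read of the mark at either stage, so the count of members is near that background.

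**Figure D4:**
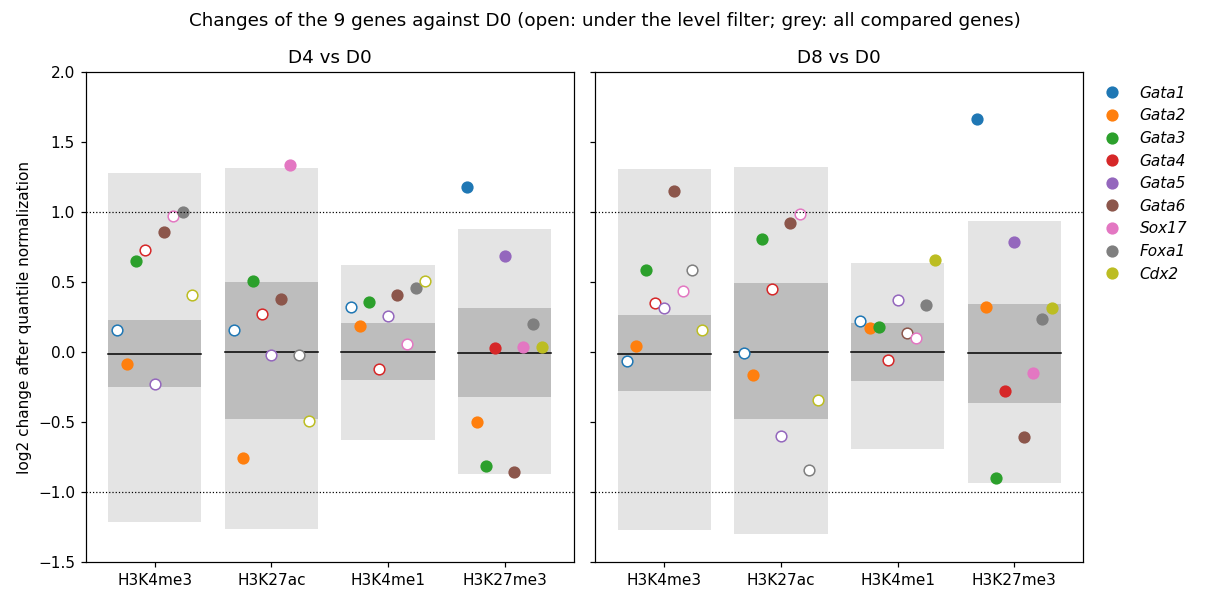
Changes of the 9 genes at D4 (left) and D8 (right) against D0, as log2 after quantile normalization with a pseudocount, for the 4 marks; filled points passed the level filter, open points did not, dark and light grey bars hold the middle 50% and 95% of all compared genes with the median as a line, and dotted lines mark 2-fold. Gata1 lies above the light bar for H3K27me3 on both sides, and Gata3 and Gata6 lie together at the bottom of that bar at D4.

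Taking H3K4me3 from 6.02 RPM and H3K27me3 from 2.53 RPM (its 75th percentile) as present, Gata2, Gata3 and Gata6 carried both marks at D0, as did 8.08% of all genes. At D4 none of the 9 carried both (4.23% of all genes), and those 3 genes were left with H3K4me3 only, as were 45.1% of all genes. At D8 Gata2, Gata6 and Foxa1 carried both (8.98% of all genes) and Gata3 H3K4me3 only (45.6% of all genes). Foxa1 lay under the median of its own library (11.1 RPM), and with thresholds taken within each library it no longer carried both at D8. With H3K27me3 taken from its median of 1.79 RPM, Gata3 carried both at D8. The D4 state depended on the thresholds too: Gata6 carried both with thresholds within each library, and Gata3 and Gata6 did with H3K27me3 from its median. Several H3K27me3 intervals include 2.53 RPM, among them those of Gata2 at D0 (1.64 to 4.84) and Gata6 at D4 (1.73 to 3.20). Gata4, Gata5, Sox17 and Cdx2 carried H3K27me3 only at every stage, and Foxa1 at D0 and D4, where H3K27me3 only was the state of 21.0% of all genes at D0, 15.98% at D4 and 16.5% at D8. Gata1 carried neither mark at D0 and D4 and H3K27me3 only at D8. The values nearest to these thresholds were Foxa1 at D8 with 6.25 RPM of H3K4me3 and Gata6 at D4 with 2.39 RPM of H3K27me3, and the H3K4me3 threshold is in RPM, a scale on which the whole D8 library was higher.

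Promoter CpG content gave a scale on which to read the levels, with the windows printed above. Among the 4359 genes with 16 to 26 CpG, the median H3K4me3 was 11.1 RPM at D0, 16.9 RPM at D4 and 34.3 RPM at D8. Cdx2, Gata5 and Foxa1 are in this class and stood at percentiles 1.42, 6.19 and 10.8 of it for H3K4me3 at D8, and at percentiles 99.4, 98.0 and 99.1 for H3K27me3. Gata3 is in the same class and stood at percentile 86.2 for H3K4me3 and 72.1 for H3K27me3. For H3K4me3, Gata3 thus lay in the upper part of a class in which the others lay near the bottom. Gata1 belongs to the 4550 genes with 0 to 4 CpG, whose median H3K4me3 at D8 was 1.06 RPM, and stood at percentile 14.2 of that class for H3K4me3 and 88.0 for H3K27me3 at D8. Gata2, in the class of 27 to 67 CpG with a median H3K4me3 of 43.4 RPM at D8, stood at percentile 24.4 for H3K4me3 and 90.4 for H3K27me3. These are descriptions of single libraries across genes.

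Likeness over all 12 libraries was measured as the root mean square of the differences in log2 of the normalized values with the pseudocount added, in which 0 would be identical. Among the 9, Gata3 and Gata6 (0.22) and Gata4 and Sox17 (0.24) were the closest pairs and Gata1 and Gata6 (2.28) the most distant. The nearest genes were then sought outside the 9, leaving out genes that share all values with another gene. Among these other genes, the nearest to Gata4 and to Sox17 was Tbx20, a T-box gene of heart development, at 0.19 and 0.23. The nearest to Cdx2 was Fgf4, a growth factor of early embryos, at 0.18, and the nearest to Foxa1 was the epithelial zinc-finger gene Ovol2 at 0.23. Outside the 9, Gata3 was nearest to Cd24a (0.23), Gata2 to Mlycd (0.20), Gata5 to Gata5os (0.16), Gata6 to Gata6os (0.17) and Gata1 to the X-linked Gm14827 (0.18). The second nearest were Xrra1 for Gata3, Kbtbd8 for Gata2, Nhlh2 for Gata4, Syndig1l for Gata5, 2610307P16Rik for Gata6, 1700092C10Rik for Sox17, C1ql1 for Foxa1, Ush1g for Cdx2 and Gm5478 for Gata1, at distances of 0.18 to 0.30. The median distance from these other genes to a member ran from 1.03 (Gata2) to 1.31 (Cdx2 and Gata1).

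Partners and targets of these factors were read from 5 lists, described by counts at D8 against D0. Many of the 28 genes of the endoderm network were rich in H3K27me3 too: 14 lay at or above the 95th percentile of H3K27me3 at D0, 18 at D4 and 17 at D8. For H3K4me3, 8 of them were compared, and 3 were at least 2-fold higher (4.24% of all compared genes) and 0 lower, with a median log2 of 0.69 against -0.01 over all genes. The T-box gene Eomes, which starts endoderm formation, had 11.02 RPM at D8 and 1.90 RPM at D0 (log2 1.36), and Prox1, a homeobox gene of liver and lymphatics, 24.3 RPM at D8 and 2.93 RPM at D0 (1.33). The third was Hhex, a homeobox gene of endoderm and blood, with 24.1 RPM at D8 and 2.93 RPM at D0 (1.31). All 3 lay under the filter at D0 and were compared only through D8. The count and the median therefore do not describe the list as a whole. For H3K27me3, 27 were compared, and 2 were higher (1.80% of all) and 0 lower (1.84% of all): Nkx2-1, a factor of lung and thyroid, had 10.1 RPM at D8 and 4.01 RPM at D0 (1.18), and Cdx4, an X-linked relative of Cdx2, 4.45 RPM at D8 and 0.978 RPM at D0 (1.16). For H3K27ac, 14 were compared, and Gsc was higher (3.81 RPM at D8, and no read at D0, which allows up to 1.90 RPM) and Cdx1 lower (1.02 RPM at D8 and 3.79 RPM at D0), where 7.43% of all compared genes were higher and 7.23% lower. Cdx4 and Gsc too lay under the filter of their mark at D0 and were compared only through D8.

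The 15 blood partners and targets of Gata1 and Gata2 held calls in both directions. For H3K4me3, 8 were compared, of which 2 were higher and 1 lower (4.24% and 3.94% of all), with a median log2 of 0.02. The gene higher besides Hhex, which is also in this list, was Epor, the erythropoietin receptor, with 10.1 RPM at D8 and 2.22 RPM at D0 (1.07). Epor and Hhex were compared only through D8. For H3K27ac the 2 called of 10 compared were lower (7.23% of all): Fli1, an ETS factor, had 1.14 RPM at D8 and 5.69 RPM at D0 (-1.75), and the receptor Kit 0.763 RPM at D8 and 2.53 RPM at D0 (-1.04). The interval of the D8 over D0 ratio excluded 1 for Fli1 (0.0708 to 0.572) but not for Kit (0.0716 to 1.45). In the same mark and comparison, 1 of the 2 blood markers compared and 1 of the 3 endothelial markers compared were called lower (7.23% of all). The blood marker Ptprc had 2.25 RPM at D8 and 5.48 RPM at D0 (-1.15) and the endothelial marker Pecam1 1.65 RPM at D8 and 5.05 RPM at D0 (-1.29), both on fewer than 10 reads at D0. The interval of the D8 over D0 ratio ran from 0.172 to 1.02 for Ptprc, which includes 1, and from 0.126 to 0.910 for Pecam1. The H3K27ac of the 4 blood markers summed to 6.19 RPM at D8 and 9.27 RPM at D0, and that of the 4 endothelial markers to 8.392 RPM at D8 and 12.004 RPM at D0, with Cd52 and Kdr at 0 at D0. Much of each D0 sum came from Ptprc and Pecam1. The lowest blood marker at D8 had 0.509 RPM and the lowest endothelial one 1.02 RPM, so Cd52 and Kdr were not lower there. The sums thus do not describe every marker. In H3K27me3, 1 of the 4 blood markers compared, Ptprc, was also lower (-1.10), where 1.84% of all were. Their part in the lower values of Fli1 and Kit was not tested. For H3K27me3 none of the 15 was called, where 3.64% of all compared genes differed at least 2-fold.

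Of the 10 trophoblast and T cell partners of Gata3 and Cdx2, 4 were compared for H3K4me3 and 1 was higher (4.24% of all). This was Tcf7, an HMG-box factor of T cells, with 20.6 RPM at D8 and 1.47 RPM at D0 (2.29), and it too was compared only through D8. For H3K27me3 all 10 were compared, and the cytokine gene Il4 was higher (1.80% of all), with 3.27 RPM at D8 and 0.587 RPM at D0 (1.07). The D0 value is from 3 reads, so that the interval of the ratio ran from 1.79 to 28.6. Il4 too lay under the filter at D0 and was compared only through D8. The 10 cardiac partners of Gata4 to Gata6 and the 7 Gata cofactors and relatives (such as the Zfpm1 and Zfpm2 cofactors) held no gene that differed at least 2-fold at D8 against D0 in any of the 4 marks. In the order H3K4me3, H3K27ac, H3K4me1 and H3K27me3, 3, 3, 3 and 9 cardiac genes and 6, 7, 6 and 3 cofactors were compared, and 8.18%, 14.7%, 0.260% and 3.64% of all compared genes differed. With so few compared, a count of 0 is near the background. The cardiac genes had a median H3K27me3 percentile of 78.1 at D0, 91.7 at D4 and 93.4 at D8, and the cofactors one of 47.6, 23.3 and 32.4. The cofactors' own median H3K4me3 was 12.5 RPM at D0, 19.1 RPM at D4 and 43.9 RPM at D8, against 2.06, 3.61 and 3.10 RPM over the 9 genes.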

How the data were processed

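ChIP-seq libraries of 4 histone marks at D0, D4 and D8 were read from a deposited table of 24453 genes. Its 12 columns that match a label were used; the other 8 value columns match none and were not used. Values in the deposited table are RPM (reads per 1 M library reads), a unit inferred from the values: between 93.5% and 94.7% of a column are whole multiples of 1 step within 0.02 of a read, and that step gave the library's reads. The submitters' processing notes name CASAVA 1.8.4, Bowtie 1.1.0, SAMtools 0.1.19, bedtools and the build mm10; for the counted region, read extension, duplicate removal and any use of input, the sources used here give nothing. The Spearman correlation of RPM with gene length across genes ran from 0.05 to 0.33, and values are not per length, so levels are compared between genes only as such.

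Left out were 27 symbols turned into dates and 205 genes at 0 in every column. Of the genes kept, 308 share all values with another gene, none of them among the 9. Changes are log2((a + c)/(b + c)) after quantile normalization over the 3 libraries of a mark, where c is the 25th percentile of its positive values; the threshold was 2-fold. With 1 library per mark and stage there is no test and no p-value. Level intervals are exact 95% Poisson intervals and ratio intervals exact conditional binomial (Clopper-Pearson) intervals; a count of 0 is set at 3 reads. Reads that PCR copied, with no molecular identifiers, are not independent, so both cover counting error only. The change calculation was run on simulated libraries with large changes put into genes of high level. Read steps and 2-fold calls at low read counts were not tested in this way.

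Named genes are the 9; for each list and mark up to 2 at least 2-fold higher and 2 lower at D8 against D0; the 2 nearest patterns of each of the 9; and annotated genes starting within 10 kb, of which Gm38708, Gm52419 and Gm35112 matched no symbol of the table. Hhex, Ptprc, Pecam1 and the overlapping genes Ttc6, 9230102O04Rik and Gata6os were named in addition, after their values were seen, and 1 gene that the rule names is not reported here. The members and lists were chosen with earlier results of these data known. Day 0 stands with ciNSLC in the series design text but with tdMEFs in every sample label, and the sample labels were followed. Alternatives were the values as deposited, median subtraction, other pseudocounts, no filter, autosomal genes only, other presence thresholds and, added after seeing the data, normalization without D0. Python 3.11.15, NumPy 2.4.6, pandas 2.3.3, SciPy 1.17.1 and matplotlib 3.10.9 were used.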

Additional observations from a re-analysis of the deposited data

How the results depend on the processing

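Of 82 counts of the 9 genes under other settings, 63 were classed as the same and 19 as moved. The former class holds some counts of both marks that differ from the main setting, given below. Of 684 single changes, 669 moved by no more than the counting error of the ratio. No called change took the other sign; of 385 single changes of genes compared in both settings, 14 did, all under 2-fold, 9 as deposited and 5 with the median subtracted, among them Foxa1 (-0.42, as deposited 0.25) and Gata3 (-0.06, as deposited 0.84) in H3K4me3 at D8 against D4. As deposited, the counts at least 2-fold different in H3K4me3 were 2 at D4 against D0 (Gata3 and Gata6), 4 at D8 against D0 (Gata2, Gata3, Gata6 and Foxa1) and 2 at D8 against D4 (Gata2 and Gata6), against 1, 1 and 0 after quantile normalization; in H3K27ac they were 3 at D8 against D0 (Gata3, Gata6 and Sox17) and 1 at D8 against D4 (Gata6), against 0 in both. With the median subtracted, H3K4me3 at D4 against D0 had 0 and H3K27ac at D8 against D0 had 1 (Sox17). With the pseudocount divided by 4, H3K27ac had 2 at D4 (Gata2 and Sox17) and 2 at D8 (Gata3 and Gata6) against D0, H3K4me1 had 1 at D8 against D0 (Cdx2), and H3K27me3 had 3 at D4 (Gata1, Gata3 and Gata6) and 2 at D8 (Gata1 and Gata3) against D0 and 1 at D8 against D4 (Gata2). With the pseudocount multiplied by 4, the counts were 0 in H3K4me3 and H3K27ac at D4 against D0 and 0 in H3K27me3 at D4 and D8 against D0. Both marks at D4 were present at 2 genes (Gata3 and Gata6) with H3K27me3 taken from its median, and at 1 (Gata6) with thresholds within each library, against 0; at D8 they were at 4 (with Gata3) and 2 (without Foxa1), against 3. No filter, autosomal genes only and normalization without D0 moved no count. The cause was not tested. No paired analysis was possible because each group has 1 library. Depth limits H3K27ac at D0 most, where 1 read is 0.632 RPM.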
